A study of Mus musculus with 4 samples.

Results

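The ribosomal protein genes of the mouse autosomes were examined in hair matrix keratinocytes with and without the DNA dioxygenases Tet2 and Tet3. Members were the autosomal protein-coding genes whose symbol is Rpl or Rps followed by digits, with the suffixes a, b, x or l allowed and without the kinase genes named Rps6k and the gene Rpl10l. This gave 76 of 20665 autosomal protein-coding genes, 46 encoding proteins of the large ribosomal subunit (Rpl) and 30 of the small subunit (Rps). Each gene was taken with 5 kb on each side, and the regions that the authors' deposited table lists there were read. At least 1 region was listed for 73 of the 76 members (96.1%), against 90.3% of the 20665 genes. The windows held 319 of the 484555 listed regions, and 6 of the 319 lay in the windows of 2 neighbouring members.

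DNA methylation came from whole-genome bisulfite sequencing of sorted hair matrix keratinocytes (proliferating epithelium of the hair bulb) of mice at P4.5, that is 4.5 days after birth. The WT was sequenced in 2 libraries, as were mice lacking both Tet2 and Tet3 under Krt14-Cre, a Cre recombinase driven by a keratin promoter of basal epithelium (double knockout, DKO). The table gives 1 mean level per region and genotype and no value per library, so differences below come without a replicate check or test, and the depth is unknown. Whether the 2 libraries per genotype are separate animals is not stated. The labelled cell type could not be checked against markers, because the table holds methylation and no expression. The table names its groups by number, and WT was taken as group 1 because the title puts it first. Under the other reading each gain below would be a loss. The list keeps what passed the authors' limit, so a gene without a listed region has an unknown level and is not shown to be unchanged.

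Ribosomal proteins fold around the ribosomal RNAs to form the small subunit, which reads the messenger RNA, and the large subunit, which joins amino acids. Their genes are short, are among the most actively transcribed genes of dividing cells, and mostly start in a CpG island, a stretch dense in CpG sites that is usually free of methylation. TET enzymes oxidise 5-methylcytosine on the way to its removal, and bisulfite sequencing reads 5-methylcytosine and 5-hydroxymethylcytosine as one signal. Loss of TET activity in other cells is known to raise methylation at enhancers and at the borders of unmethylated islands.

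The start sites are shown first because the levels below turn on them. RefSeq start sites and strands (GRCm38.p6) were found for 57 of the 76 members. Each sequence runs 5′ to 3′ on the coding strand from 200 bases before the first annotated start through 20 bases from it on, with every CpG in capitals. Rps19, Rpl31 and Rpl13a have an unmethylated region over the start, Rps27 and Rpl19 hold the largest differences of their subunits, and Rpl39l is the member whose listed start was methylated.
Rps19, chr7:24884392-24884611, plus strand: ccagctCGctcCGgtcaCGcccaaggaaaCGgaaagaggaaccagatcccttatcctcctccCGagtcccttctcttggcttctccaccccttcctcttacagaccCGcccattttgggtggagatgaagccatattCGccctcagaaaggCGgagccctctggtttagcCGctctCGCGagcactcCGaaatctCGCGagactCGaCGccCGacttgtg
Rpl31, chr1:39367651-39367870, plus strand: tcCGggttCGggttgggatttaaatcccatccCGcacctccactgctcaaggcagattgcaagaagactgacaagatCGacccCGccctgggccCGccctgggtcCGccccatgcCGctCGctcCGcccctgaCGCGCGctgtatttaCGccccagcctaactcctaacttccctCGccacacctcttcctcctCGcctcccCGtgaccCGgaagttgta
Rpl13a, chr7:45128726-45128945, minus strand: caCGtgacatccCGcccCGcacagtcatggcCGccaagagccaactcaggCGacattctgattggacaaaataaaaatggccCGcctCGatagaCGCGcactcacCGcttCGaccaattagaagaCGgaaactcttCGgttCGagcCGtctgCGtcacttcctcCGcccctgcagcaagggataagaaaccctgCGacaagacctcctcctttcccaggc
Rps27, chr3:90213629-90213848, minus strand: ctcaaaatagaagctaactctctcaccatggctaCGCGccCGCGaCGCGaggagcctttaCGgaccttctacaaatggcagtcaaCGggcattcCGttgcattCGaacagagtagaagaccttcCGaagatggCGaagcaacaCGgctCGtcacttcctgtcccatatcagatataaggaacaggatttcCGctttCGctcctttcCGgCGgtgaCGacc
Rpl19, chr11:98026510-98026729, plus strand: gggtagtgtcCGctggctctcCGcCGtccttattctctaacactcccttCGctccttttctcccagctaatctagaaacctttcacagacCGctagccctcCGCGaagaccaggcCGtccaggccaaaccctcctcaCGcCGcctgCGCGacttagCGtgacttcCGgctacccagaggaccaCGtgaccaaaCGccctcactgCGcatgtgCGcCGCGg
Rpl39l, chr16:10170028-10170247, plus strand: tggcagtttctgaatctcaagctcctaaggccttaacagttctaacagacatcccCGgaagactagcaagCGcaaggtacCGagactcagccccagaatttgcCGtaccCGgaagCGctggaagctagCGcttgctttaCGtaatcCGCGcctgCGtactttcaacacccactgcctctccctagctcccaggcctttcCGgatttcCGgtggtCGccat

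These stretches hold 17 CpGs at Rps19, 18 at Rpl31, 18 at Rpl13a, 19 at Rps27, 20 at Rpl19 and 14 at Rpl39l. Over the 300-base RefSeq window (250 bases before the start and 50 from it on), the 57 members had a median of 21 CpGs (range 2 to 42), against 14 over the 16457 autosomal coding genes with such a window. At least 10 CpGs were present in 54 of the 57 windows (94.7%) and in 58.5% of all windows. The letters CCGGAAG, the core bound by ETS factors, occurred on either strand in 22 of the 57 windows (38.6%) and in 12.3% of all. ATGGCG on either strand, part of the site of the factor Yy1, occurred in 18 (31.6%) and in 11.4% of all. TATAAA on the coding strand occurred in 4 windows (7.02%) and in 9.08% of all. None of these motifs contains another, and a match is a match of letters only. A C followed by 4 pyrimidines at the annotated start, the form of the terminal oligopyrimidine tract of translation genes, was found in 12 members (21.1%) and in 2.18% of all genes.

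Where a listed region covered the start of a ribosomal protein gene, it was nearly always unmethylated in both genotypes. Such a region covered the first annotated start of 32 of the 57 members (56.1%), against 28.9% of the 16457 genes. The level at the other 25 known starts, and at the members without a known start, is not given by the list. In 31 of the 32 the level was below 10% in both genotypes. At a bound of 20% the count was also 31 of 32. Over all genes, 4157 of the 4748 with a listed region over the start were below 20% in both genotypes. A low level was thus common at listed starts in general and not particular to ribosomal protein genes. Over the 32 regions the median level was 2.75% for WT and 2.72% for DKO, and the median difference (DKO minus WT, in percentage points) was -0.21. In 29 of the 32 regions the genotypes differed by less than 1 point, a count with no share over all genes beside it. These regions were wide and dense, with medians of 1209 bp in width and 156 in cytosine positions, where both strands of a CpG count mostly apart. They reached from a median of 509 bp before the start to 700 bp after it.

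At Rps19, a small subunit protein needed for maturation of the subunit and mutated in Diamond-Blackfan anaemia, the authors' deposited table gives 3.07% for WT and 2.86% for DKO over the start, on 206 positions. The start region of Rpl31 was at 3.47% and 3.90% by the authors' deposited table, on 223 positions. That was the most of any start region among members with a known start. At Rpl13a, a large subunit protein, the levels were 2.33% and 2.18% by the authors' deposited table, and at Rps27 2.04% and 2.30%. The exception was Rpl39l, a paralog of the X-linked Rpl39 known for its expression in testis. Its start lay in a region of 47 positions at 79.2% for WT and 74.1% for DKO per the authors' deposited table. The Rpl39l stretch printed above holds 14 CpGs.

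**Figure D1:**
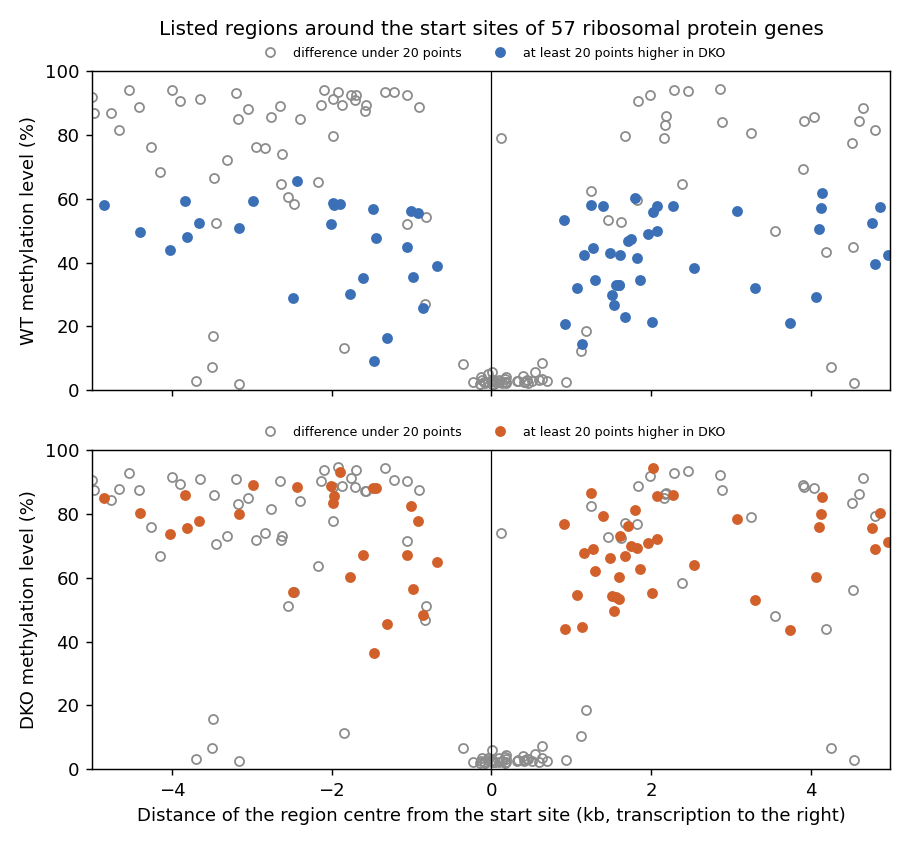
Levels of listed regions within 5 kb of the first annotated start of 57 ribosomal protein genes, WT above and DKO below, in percent. Each point is the mean of 1 region in 1 genotype, placed at its centre. Filled points are at least 20 points higher in the DKO. Points at the start lie near 0 in both panels except Rpl39l, and most filled points lie more than 1 kb away on either side.

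Regions with large gains stood beside the unmethylated starts. A gain here is a region at least 20 points higher in the DKO. Among the 57 members with a known start, none of the 90 gains lay within 500 bp of the start, the nearest edge being 512 bp away, and 9 came within 1 kb. In the bin from 1500 to 2000 bp after the start, gains covered 15.5% of the bases and occurred in 18 of the 57 members. In the bin from 1500 to 2000 bp before the start they covered 7.37%. The bins on either side of the start, each 500 bp, held none.

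Gains were also sparse at the starts of genes in general and denser further on, but over a broader stretch. Over all 16457 genes, gains covered 5.58% of the bases from 1500 to 2000 bp after the start, 4.02% from 2500 to 3000 bp and 1.16% in the first 500 bp. The 57 members had 1.83% from 2500 to 3000 bp. Among the 4157 genes whose start, like that of 31 members, lay in a listed region below 20% in both genotypes, they covered 11.3% from 1500 to 2000 bp and 0.022% in the first 500 bp. Over the 31 members the values were 15.8% and 0%. Listed regions do not overlap, and low regions covered 85.0% of the first 500 bp over the 31 members and 88.6% over the 4157 genes. The near absence of gains there thus follows from how these genes were chosen. A gain within 2 kb past the downstream edge of that region was present in 14 of the 31 members (45.2%), against a background of 48.5% of the 4157 genes. At the upstream edge it was present in 10 of 31 (32.3%), against 35.5%. At either edge the counts were 20 of 31 (64.5%) against 66.1%. In these counts the members were near the background of genes with an unmethylated start. From 2500 to 3000 bp after the start, coverage was 3.37% over the 31 members and 9.02% over the 4157 genes. The gap from the region's downstream edge to the gain had a median of 755 bp (range 365 to 1470).

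**Figure D2:**
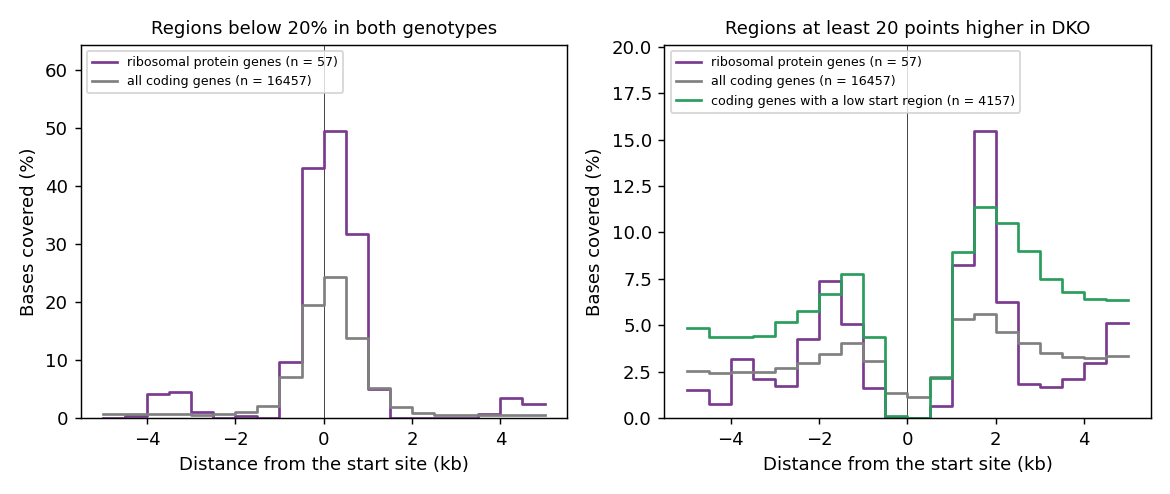
Percent of bases covered, in 500-bp bins from 5 kb before to 5 kb after the first annotated start, by regions below 20% in both genotypes (left) and by gains, as defined at 20 points (right). Purple is 57 ribosomal protein genes, grey all 16457 autosomal coding genes with a start, green the 4157 of them with a low start region. Purple gains are at 0 in both bins beside the start and peak at 15.5% from 1500 to 2000 bp after it.

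A gain inside the gene was found in 31 of the 76 members (40.8%), in 37 regions. The background was 54.6% of the 20665 genes and 24.2% of the 8163 genes no longer than the longest member (11774 bp). Gene length differs between members and other genes, with medians of 3179 bp and 17491 bp, and its part in these shares was not tested. The medians of the 37 regions were 42.3% for WT and 67.7% for DKO, and the differences ran from 20.5 to 33.7 points. None of them reached 40 points.

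For the 24 of these genes with a known start, the edge of a gain nearest the start lay at a median of 1429 bp from it. In 22 of the 24 genes a gain began between 863 and 1832 bp after the start, limits taken from these same genes. The exceptions were Rpl31 and Rpl11, where the gain lay near the far end of the gene. Inside genes or not, gains occurred from 1000 to 1500 bp after the start in 29.8% of the 57 members, against 13.1% of the 16457 genes. Among those with a low start region the shares were 35.5% of 31 members and 23.7% of 4157 genes. At Rpl22, a protein needed for T cell development, 1 further gain lay 512 bp before the first of 2 annotated starts and after the other. Rpl18 also held a gain of 3 positions inside the gene but before its first listed start, at 35.5% for WT and 56.4% for DKO by the authors' deposited table.

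The largest intragenic gain was at Rps19 (chr7:24886021-24887199, 31 positions, 1429 to 2607 bp after the start). Its level was 21.4% for WT and 55.2% for DKO by the authors' deposited table, with a spread estimate of 3.45 points. A second Rps19 region, from 4043 to 4171 bp after the start (14 positions), was at 50.6% and 75.9% by the authors' deposited table. The gene thus held an unmethylated start and a pair of regions that were higher in the DKO.

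At Rpl13a the region from 1473 to 2248 bp after the start (42 positions) was at 34.4% for WT and 62.8% for DKO by the authors' deposited table, and it holds Snord33 and Snord34, genes of small nucleolar RNAs. At Rpl4, whose product lines the tunnel through which the new protein leaves, the region from 1446 to 2213 bp (33 positions) was at 41.5% and 69.5% by the authors' deposited table, and it holds Snord16a.

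Small nucleolar RNAs guide modification of ribosomal RNA, and many are cut from introns of ribosomal protein genes. Of the 26 members that host such a gene, 13 had a gain inside the gene, and of the 50 others 18 had one. Of the 37 gains, 4 overlapped a small nucleolar RNA gene, among them those of Rpl13a, Rpl4 and Rpl23a. These counts have no share over other genes or gains beside them and no match for gene length. A link to hosting was not tested.

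Rpl5 and Rpl11 together bind Mdm2, the ubiquitin ligase of Trp53, when ribosome assembly is disturbed. Inside Rpl5 (chr5:107902108-107902362, 6 positions) the level was 46.7% for WT and 76.2% for DKO by the authors' deposited table. Inside Rpl11, at the end away from the start (10 positions), it was 29.1% and 60.3% by the authors' deposited table. Both starts were unmethylated, at 3.24% in each genotype for Rpl5 and at 4.44% and 4.02% for Rpl11 by the authors' deposited table.

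Rps6, the small subunit protein phosphorylated by the S6 kinases, held a gain of only 4 positions and 5 bp. Its level was 57.9% for WT and 79.3% for DKO by the authors' deposited table. Inside Rpl38, whose loss in mice alters translation of Hox messages, the gain (24 positions) was at 26.8% and 49.6% by the authors' deposited table. Inside Rps3, which lies at the entry of the messenger RNA channel, it was at 33.0% and 53.5% by the authors' deposited table, the smallest intragenic gain of the set.

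Several further large subunit genes held a gain inside the gene. Inside Rpl13 there were 2 neighbouring gains, of 4 and 7 positions, at 42.5% for WT and 73.1% for DKO and at 57.6% and 85.6% by the authors' deposited table. Inside Rpl18 the gain of 26 positions that began 1077 bp after the start was at 34.6% and 62.2% by the authors' deposited table. Rpl6 (13 positions) was at 32.0% and 54.7%, and Rpl9 (6 positions) at 33.1% and 53.9%, by the authors' deposited table. Rpl28 (10 positions) was at 42.5% and 67.7%, and Rpl36 (7 positions) at 33.1% and 59.4%, by the authors' deposited table. Rpl12, part of the base of the stalk, was at 49.1% and 70.8% on 8 positions by the authors' deposited table.

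At Rpl7, Rpl23a, Rpl29 and Rpl37a the gain inside the gene lay within 1 kb of an end, as it did at several members named above. Rpl7 was the most methylated of these in WT, at 69.9% against 92.8% for DKO by the authors' deposited table. Rpl23a, whose product sits at the tunnel exit, was at 53.4% and 81.9% (18 positions), and Rpl29 at 48.4% and 72.5% (9 positions), by the authors' deposited table. Rpl37a was at 32.9% and 60.2% on 3 positions by the authors' deposited table. All of these regions were of intermediate level in WT except Rpl7.

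Among small subunit genes, Rps15 held a gain of 26 positions at 43.0% for WT and 66.1% for DKO by the authors' deposited table. Rps14, whose loss contributes to the anaemia of a human deletion syndrome, was at 39.6% and 60.4% on 18 positions by the authors' deposited table. Rps23, a protein of the decoding centre, was at 44.4% and 68.9%, and Rps3a1 at 29.9% and 54.2%, by the authors' deposited table. The gain inside Rps2 rests on 2 positions, at 47.3% for WT, a gain of 22.7 points, by the authors' deposited table.

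Very low WT levels with a gain were rare. Of the 76 listed regions with a WT level under 20% in the members' windows, 6 were gains, at Rpl37, Rpl30, Rps12, Rpl15 and, with 2 regions, Rpl19. Inside Rpl37 (4 positions, 1080 to 1194 bp after the start) the level was 14.4% for WT and 44.7% for DKO by the authors' deposited table. Inside Rpl30 (4 positions, 18 bp) it was 17.0% and 41.6% by the authors' deposited table. Over all autosomes, 4449 of 15400 listed regions with a WT level under 20% were gains, and in windows of all coding genes 2885 of 12265. The regions compared were unlike in size. Their median number of positions was 111.5 in the members' windows, 50 in those of all genes and 36 on all autosomes. The part of this in the shares was not tested. The median difference of these low regions was -0.0042 points in the members' windows and 0.67 points on all autosomes.

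**Figure D3:**
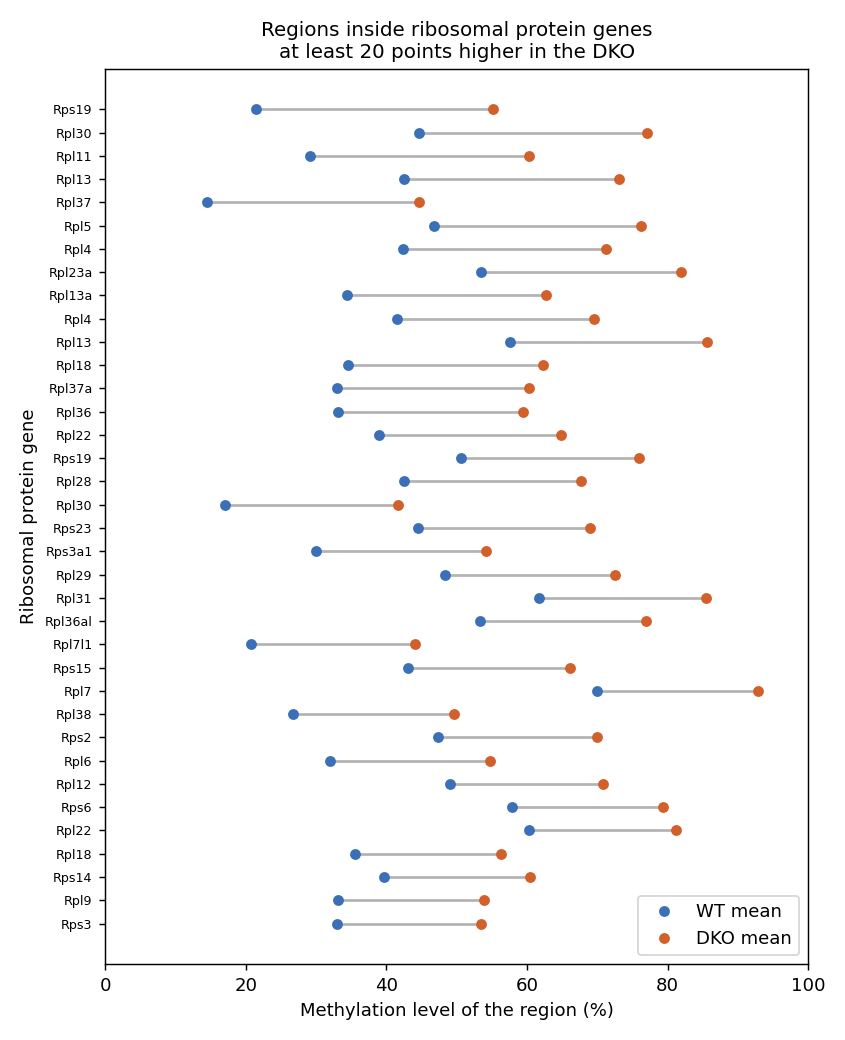
Mean methylation level in percent of 36 of the 37 regions that overlap a ribosomal protein gene and are at least 20 points higher in the DKO, WT in blue and DKO in orange, 1 line per region, ordered by difference. Most start at intermediate WT levels, and the widest line is Rps19, from 21.4% to 55.2%.

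With the 5 kb flanks, 57 of the 76 members held a gain. The background was 67.4% of the 20665 genes, and 45.8% of the 8163 genes no longer than the longest member. Of the 57, 23 held 1 gain, 16 held 2, 13 held 3 and 5 held 4. Those with 4 were Rpl18, Rpl22, Rpl28, Rpl36 and Rpl36al. The share of members was near the background of all genes and above that of the shorter genes. Whether members or all genes were higher turned with the setting. The settings below are set beside all genes only, whose longer bodies give wider windows, and the part of gene length in them was not tested. With 2 kb flanks 46 members (60.5%) held a gain, against 62.0% of genes, and with regions at least 100 bp wide 48 (63.2%), against 63.9%. At 30 points it was 24 members (31.6%) against 41.4% of genes. At 40 points the members were 5 (6.58%), against 16.9%. Restricted to regions of at least 10 positions, gains of 20 points were present in 40 members (52.6%), against 57.8% of genes. In these settings the members were lower. They were higher with 10 kb flanks (88.2% against 72.6%), with 20 kb flanks (93.4% against 78.4%) and at 10 points (84.2% against 71.5%). With at least 5 positions they were also higher, at 67.1% against 63.4%, as they were with neighbouring regions merged (66.6% of genes).

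The largest differences lay outside the ribosomal protein genes themselves. All 5 members with a difference of at least 40 points had it in a flank. Near Rpl19 the region at chr11:98020938-98021134, 869 bp from the gene and only 3 positions, was at 17.3% for WT and 63.1% for DKO by the authors' deposited table. It lies inside the calcium channel gene Cacnb1, and its spread estimate, 5.89 points, was among the highest of the set (median 3.52). Near Rps27 the region at chr3:90211707-90212233 (24 positions, 434 bp past the gene and inside Nup210l) was at 23.1% and 66.7% by the authors' deposited table. Upstream of Rpl31 the level was 47.8% and 88.3% by the authors' deposited table, and downstream of Rps27l, a paralog of Rps27 induced by Trp53, it was 29.7% and 70.3%.

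Some flank gains lay close to a member. The nearest were 8 bp past Rpl13a (32.1% for WT, 53.2% for DKO) and 28 bp past Rpl22 (55.1% and 91.7%, 25 positions) by the authors' deposited table. Past Rpl18 at 160 bp the levels were 56.0% and 78.5%, and past Rps15 at 561 bp 38.4% and 63.9%, by the authors' deposited table. Upstream of Rpl28 at 985 bp they were 56.2% and 82.6%, and upstream of Rps16 at 912 bp 55.4% and 77.7%, by the authors' deposited table. Past Rpl14 at 826 bp the DKO level was 80.1%, a gain of 23.1 points, by the authors' deposited table. The most listed regions per window included 10 at Rpl28 and 9 at Rpl7l1.

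Flank regions can belong to other genes. Of the 111 distinct gains in the windows, 37 overlapped a member and 74 lay in flanks only. Of these 74, 32 lay inside another protein-coding gene and 42 outside any. Without the flank regions inside other genes, 47 members (61.8%) held a gain, a count with no share over all genes beside it. Regions in the windows of 2 members were counted once, since such neighbours are not independent. The flank gains had medians of 49.8% for WT and 78.2% for DKO.

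Gains in the flanks only were found at 26 members, among them Rpl3, Rpl7a, Rpl8, Rpl14, Rpl15, Rpl19, Rpl21, Rpl23, Rpl32l, Rpl35, Rpl35a, Rps10, Rps12, Rps16, Rps20, Rps24, Rps25, Rps26, Rps27, Rps27a, Rps27l, Rps28 and Rps29. The window of Rps26 was the most covered of all members, at 16.2%, by a region 1281 bp upstream (35.1% for WT, 67.3% for DKO by the authors' deposited table) and one past the gene. That of Rpl13a was covered to 13.7%. Over the 76 windows the mean coverage by gains was 3.85% and the median 2.45%, against 2.82% and 1.55% over all genes. At 30 points the mean was 1.22% against 1.5%.

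**Figure D4:**
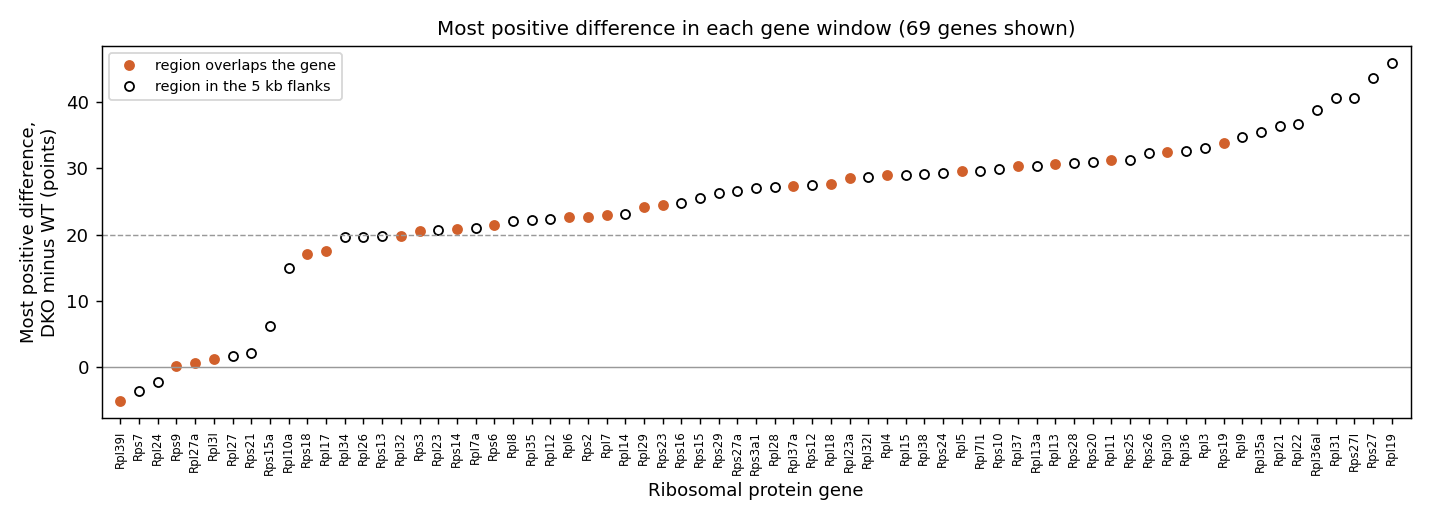
Most positive difference between the genotypes (DKO minus WT, percentage points) in the windows of 69 of the 73 ribosomal protein genes with a listed region, in rising order. Filled points are regions that overlap the gene, open points regions in the 5 kb flanks, and the dashed line marks 20 points. The 4 points above 40 are all open, and 16 points lie under the dashed line.

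Just inside the 20-point limit were Rps3 at 20.5, Rpl23 at 20.6, Rps14 at 20.8 and Rpl7a at 20.9 points. Just outside it were Rpl32 at 19.84, Rps13 at 19.83, Rpl26 at 19.6 and Rpl34 at 19.6 points. A further 12 members had listed regions but no gain, namely Rpl3l, Rpl10a, Rpl17, Rpl24, Rpl27, Rpl27a, Rpl39l, Rps7, Rps9, Rps15a, Rps18 and Rps21. No listed region lay in the windows of 3 members, among them Rpl22l1 and Rpl41, so their levels are unknown here.

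At the ends of the gene, a listed region of any difference lay within 1 kb of an end in 67 members (88.2%), against 66.9% of genes. A gain lay there in 29 members (38.2%), against 24.9%. Among the 57 members with a known start, gains within 1 kb of the start were at the background, in 9 members (15.8%) against 15.1%. At the opposite end they were present in 18 members (31.6%), against 12.3%. The 18 genes had a median length of 3016 bp. How much of the difference at the far end moves with gene length was not tested. With at least 5 positions per region, 24 members (31.6%) had a gain at an end, against 21.3% of genes. With at least 10 positions it was 13 members (17.1%), against 16.9%.

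By subunit, the genes with a gain in the window were 34 of 46 (73.9%) for the large subunit and 23 of 30 (76.7%) for the small one. Inside the gene the counts were 22 of 46 (47.8%) and 9 of 30. Median window coverage was 2.53% and 2.31%. No test of these differences was possible.

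Extra paralogs (symbols with l) did not behave as one group. Rpl3l, which replaces Rpl3 in striated muscle, had no gain, and the region of 47 positions inside the gene was at 81.7% for WT and 79.3% for DKO by the authors' deposited table. Rpl39l had only regions that were lower in the DKO. Rpl36al, a paralog of the X-linked Rpl36a, held 4 gains, the largest past the gene at 55.8% and 94.5% by the authors' deposited table. Rpl7l1 held 2 gains, 1 of them 912 bp after its start, at 20.7% and 44.1% by the authors' deposited table. Rps27l had an unmethylated start (2.55% and 3.00% by the authors' deposited table) and gains only past the gene. The single gain at Rpl32l lay 974 bp after its start within the gene Map7, in which Rpl32l is nested.

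Losses were small. No member window held a region at least 10 points lower in the DKO, against a background of 7.06% of all genes. That background includes much longer genes, with wider windows, and the part of gene length was not tested. Regions at least 5 points lower numbered 8, at 4 members. They were 2.51% of the members' regions, against 9.99% of those in windows of all genes, with the same limit. At Rpl17, another protein of the exit tunnel, 4 neighbouring regions on chromosome 18 were lower, the widest difference being 69.6% for WT against 59.9% for DKO across a gene end, with a high spread estimate of 5.24 points by the authors' deposited table. Another Rpl17 region inside the gene was higher, at 49.1% and 66.6% by the authors' deposited table. Upstream of Rpl38 a region of 18 positions stood at 60.7% for WT and 51.1% for DKO by the authors' deposited table. Both regions of Rpl39l and 1 inside Rpl34 made up the rest.

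Read over all 319 regions, the members' windows held a larger share of low-methylated regions than the windows of all coding genes. Members are shorter genes, with narrower windows, and the part of gene length in the values below was not tested. For WT the median level was 53.3%, with quartiles at 22.3 and 80.6, and for DKO it was 73.8%, with quartiles at 46.1 and 86.3. Over the 258475 regions in windows of all autosomal coding genes the medians were 77.5% and 80.7%. Regions under 20% in the WT made up 23.8% of the members' regions and 4.75% of those of all genes. The median difference was 1.06 points (interquartile range -0.61 to 23.0), against 0.61 over the regions of all genes. Gains were 34.8% of the members' regions and 26.5% of those of all genes. Among regions with a WT level of 20% to 60%, the shares of gains were close, 82.1% (96 of 117) and 81.7%. The gains of the members had a median difference of 26.4 points, against 28.4 over the 110564 autosomal gains.

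Other genes of the ribosome and of translation showed shares of the same order. Of 7 further cytosolic ribosomal protein genes, 6 held a gain in the window, including Rplp0 and Rplp1 of the stalk and Fau, whose product is fused to a ubiquitin-like protein. At Rplp0 a flank region of 9 positions was at 27.5% for WT and 56.4% for DKO by the authors' deposited table. Of 78 mitochondrial ribosomal protein genes, which serve the separate ribosome of mitochondria, 56 (71.8%) held a gain. Of 32 measured translation initiation and elongation factors 24 did, and of 26 measured ribosome biogenesis genes 21 (80.8%). Each share is to be read against 67.4% of all genes.

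Single genes of these lists, Eif3h, Bop1 and Mycn among them, reached larger differences than any ribosomal protein gene. Inside Eif3h, a subunit of an initiation factor, a region of 42 positions was at 30.6% for WT and 82.5% for DKO by the authors' deposited table. Inside Bop1, needed to mature the large subunit, it was 27.5% and 78.0% by the authors' deposited table. Of 10 upstream regulators, 8 held a gain, and inside Mycn, a Myc family transcription factor, the level was 24.7% and 76.6% on 137 positions by the authors' deposited table. For scale, 7 of 8 measured inner root sheath and companion layer keratins held a gain, and their mean window coverage was 15.2%, against 3.85% for the ribosomal protein genes and 2.96% for the mitochondrial ones.

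**Figure D5:**
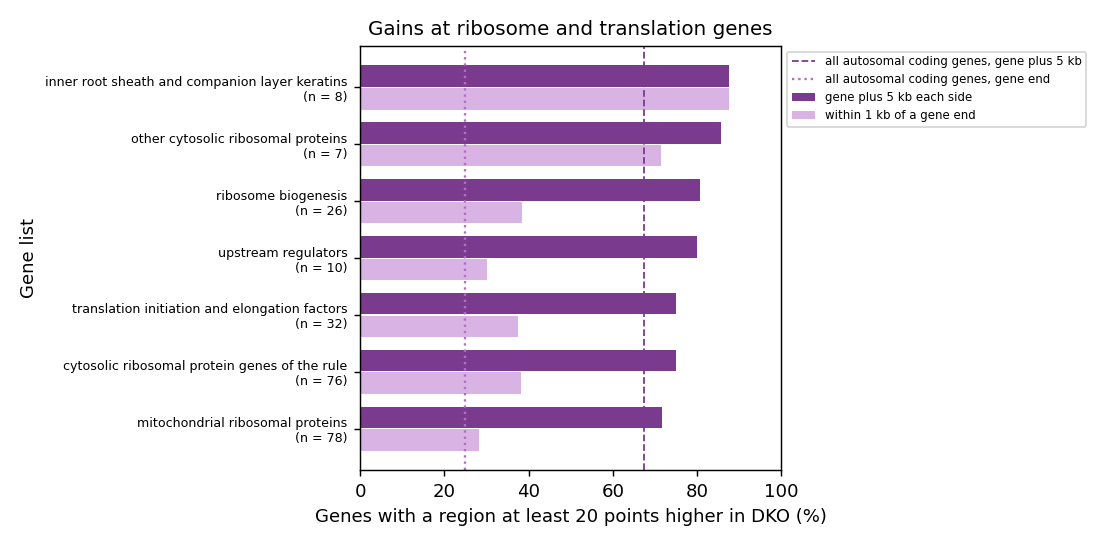
Percent of the genes of each list with a region at least 20 points higher in the DKO, in the gene plus 5 kb on each side (dark bars) and within 1 kb of a gene end (light bars). The dashed and dotted lines give the same shares over all autosomal coding genes, 67.4% and 24.9%. The light bar of the ribosomal protein genes is at 38.2%.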

How the data were processed

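Whole-genome bisulfite libraries (2 WT, 2 DKO) were grouped by title. The submitters' processing notes name Trim Galore, Bismark and the mouse build GRCm38 (mm10). Not given in the sources used here are the region caller, its filters and how reads matching the many processed pseudogenes of ribosomal protein genes were treated. Per the file headers, the authors' deposited table gives a mean methylation fraction per region and group, multiplied here to percent, and a statistic, treated as a score and not used. It has no p-values, read counts or values per library, so the planned model on reads was not run.

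Gene positions, strands and start sequences came from RefSeq tables (GRCm38.p6); 57 of 76 members had a start. Where a gene had several starts, the first listed was used. Regions were counted by overlap of at least 1 base with Python 3.11.15, pandas 2.3.3 and numpy 2.4.6. The counting was tested on simulated data (200 of 200 windows recovered). Members, lists and rules were chosen with earlier results of these data known. Named were members with a gain, the members with the largest losses, those with no listed region and the l paralogs, and in the other lists genes chosen after their values were seen. Alternatives changed the gain, the window, the end distance, the minimum positions and width, merging and the member set. A few genes count in the totals but are not reported here by name, and the plots labelled by gene leave them out.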

Additional observations from a re-analysis of the deposited data

How the results depend on the processing

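Of 35 alternative values, 24 stayed within 1.5 times the main one. None changed sign, which only the difference over member regions could do, since counts and coverage cannot be negative. Members with a gain were 57, and 24 at 30 points and 31 with the gene body only. Members with a gain within 1 kb of an end were 29 (38.2%), against 24.9% of genes. At 500 bp they were 16 (21.1%), against 13.0%, and at 2 kb 46 (60.5%), against 42.4%. With at least 5 positions they were 24 (31.6%), against 21.3%, and with at least 10 they were 13 (17.1%), against 16.9%. These settings were chosen after seeing the data, and the smaller counts follow from fewer regions or bases counted. The median difference over member regions, 1.06 points, was 0.62 with at least 5 positions, 0.38 with at least 10, 0.37 in gene bodies and 0.62 with 20 kb flanks, and the mean weighted by positions was 3.30. Mean window coverage, 3.85%, was 1.22% at 30 points. No paired analysis was possible because the table gives 1 mean per genotype, and for the same reason leaving out a library was not run. Depth is unknown. Of the 111 gains, 25 rest on fewer than 5 positions and 55 on fewer than 10, so single short regions are the least secure values.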

Other observations

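Pseudogenes named after ribosomal protein genes (symbols ending in ps, with or without digits) were read in the same way. They were chosen after the data were seen. Of 267 on the autosomes, with a median length of 528 bp, 100 (37.5%) held a gain within 5 kb and 6 (2.25%) held one inside. No share over other features of that length stands beside these counts, so they are not to be set against those of the longer member genes. Around them the median over listed regions was 78.5% for WT and 81.1% for DKO, and 28 of 683 were under 20% in the WT. Mean window coverage by gains was 2.38%. Of the 69 that overlap a protein-coding gene, 34 had a gain within 5 kb, and of the 198 others 66 had one. The difference between these groups was not tested.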
